A study of Canis lupus familiaris with 9 samples.

Results

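Glucose and lactate transporters are the membrane carriers through which muscle takes up its main sugar fuel and exchanges lactate with blood and neighbouring cells. The 9 genes described here were chosen by symbol: SLC2A1, SLC2A3, SLC2A4, SLC2A8 and SLC2A12 of the facilitative glucose transporter (GLUT) family, SLC16A1, SLC16A3 and SLC16A4 of the monocarboxylate transporter (MCT) family, and BSG, the chaperone of the latter. They are 9 of the 15115 genes that the array names by a probe set of their own, and 22 probe sets belong to them. The probe set of highest mean over the 9 dogs stands for each gene, and the others are given beside it. A probe set was tested where it exceeded log2 4 on at least 4 arrays, which 18394 did, and 7 of the 9 genes passed through their representative. SLC2A12 and SLC16A4 did not and are given by their values alone.

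The samples were skeletal muscle of 9 intact female beagles aged 4 years, each an independent animal with 1 Affymetrix array. For 24 weeks, 5 dogs (animals 2, 5, 6, 7 and 8) ate ad libitum, that is without restriction, and 4 control dogs (animals 1, 3, 4 and 9) received what kept their body weight at its starting level. Both groups were given the same commercial performance diet, were assigned at random and were sampled after a night without food, so that all values are from fasted muscle. The labels do not name the muscle sampled. The comparison asks whether free access to food is accompanied by other transporter transcript levels.

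Facilitative glucose transporters let glucose move down its gradient, and in muscle the step is regulated mostly by location. GLUT4, encoded by SLC2A4, is held in vesicles inside the fibre and moves to the surface after insulin or contraction, so its transcript level is not a measure of uptake. Monocarboxylate transporters carry lactate and pyruvate together with a proton, and MCT1 and MCT4, encoded by SLC16A1 and SLC16A3, need basigin, the product of BSG, to reach the membrane. MCT4 is typical of glycolytic fibres that release lactate, and MCT1 of oxidative fibres that take it up.

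None of the 7 tested transporter genes passed the test between the feeding groups. After Benjamini-Hochberg adjustment of the limma fit over all 18394 tested probe sets, 0 of 7 had an adjusted p under 0.05 (background: 0% of all probe sets) and 0 of 7 had an unadjusted p under 0.05 (background: 5.91%). Their adjusted p ran from 0.924 to 0.999. Ad libitum means were higher for 4 and lower for 3, against 48.4% higher among all tested probe sets. The median log2 difference, ad libitum minus control, was 0.0052 over the 7 genes and -0.0082 over all tested probe sets. All 7 had overlapping groups, while 1.44% of tested probe sets had groups that did not overlap. A missed threshold does not show equal levels, so the 95% interval of each difference is given below. It lay within 1 log2 unit either side of 0 for 5 of the 7 genes, as it did for 82.2% of tested probe sets, and was wider for SLC2A3 and SLC16A3.

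**Figure D1:**
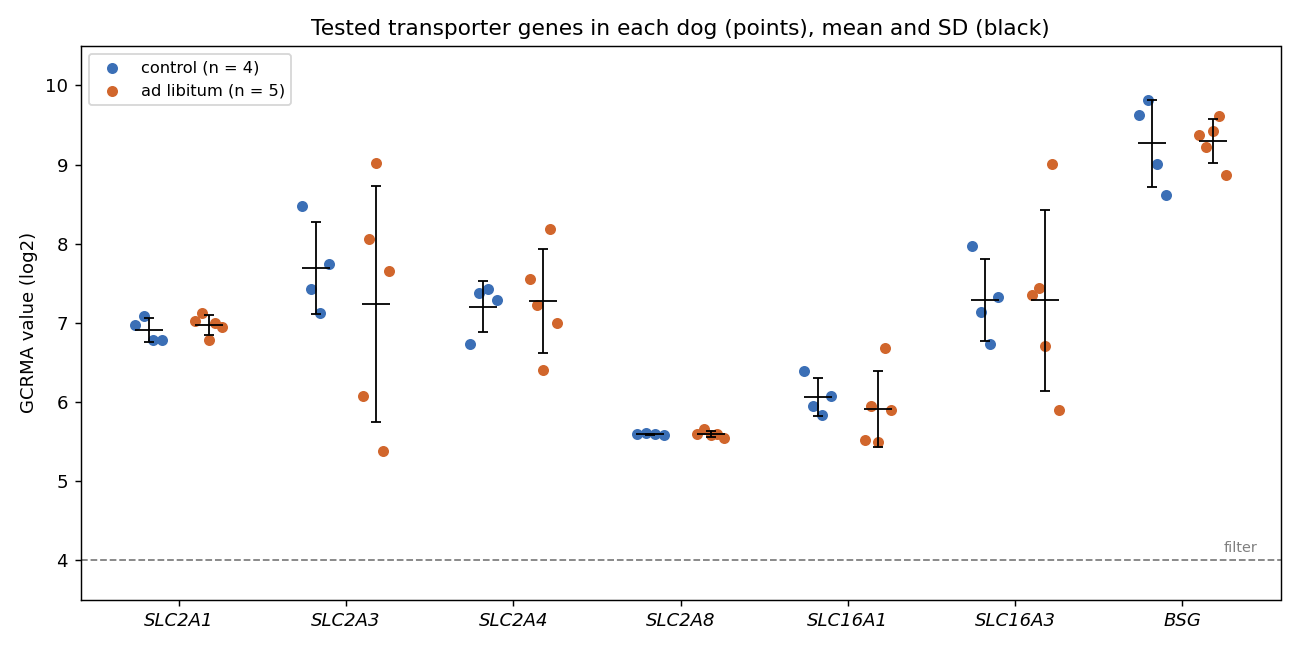
GCRMA values on the log2 scale (vertical axis) of the 7 tested transporter genes in each of 9 dogs, control dogs in blue and ad libitum dogs in orange, with the group mean and SD in black and the level used for filtering as a dashed line. The 2 groups overlap for every gene, and SLC2A3 and SLC16A3 are the most widely spread.

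SLC2A4 encodes GLUT4, the insulin-responsive transporter of muscle and fat. Its log2 values were 7.55, 7.22, 6.41, 8.19 and 7.00 in ad libitum dogs 2, 5, 6, 7 and 8, and 6.73, 7.38, 7.42 and 7.28 in control dogs 1, 3, 4 and 9. The highest and the lowest value, in dogs 7 and 6, both came from ad libitum dogs, and the control values lay between them. The group means were 7.27 ± 0.66 (SD, n = 5) and 7.20 ± 0.32 (SD, n = 4), a log2 difference of 0.07 (SE 0.33, adjusted p = 0.979, limma) with a 95% interval from -0.66 to 0.80, or 0.632-fold to 1.74-fold. The sign was not settled: a further probe set gave -0.09, and leaving out ad libitum dog 7 gave -0.16.

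SLC2A1 encodes GLUT1, the widely distributed transporter of basal glucose uptake, which endothelium also carries. In ad libitum dogs 2, 5, 6, 7 and 8 it stood at 7.03, 7.13, 6.78, 7.00 and 6.95, and in control dogs 1, 3, 4 and 9 at 6.97, 7.09, 6.78 and 6.78. All 9 dogs fell within 0.35 log2 units. The difference was 0.07 (SE 0.12, adjusted p = 0.932, limma), with an interval from 0.877-fold to 1.26-fold. A further tested probe set of SLC2A1 ran over 1.14 log2 units, with dog 5 highest on both, and differed by 0.17 (SE 0.25). The dogs' values on these 2 probe sets correlated at r = 0.913 (exact permutation p = 0.0013, n = 9) and rho = 0.870 (exact permutation p = 0.0037).

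SLC2A3 encodes GLUT3, a high-affinity transporter best known from neurons and also present in white blood cells and platelets. Its ad libitum values were 6.07, 8.06, 9.02, 5.38 and 7.65 in dogs 2, 5, 6, 7 and 8, and its control values were 8.48, 7.43, 7.13 and 7.75 in dogs 1, 3, 4 and 9. Ad libitum dogs 7 and 2 were below all control dogs and ad libitum dog 6 was above them. The means were 7.24 ± 1.49 (SD, n = 5) and 7.70 ± 0.58 (SD, n = 4), a log2 difference of -0.46 (SE 0.69, adjusted p = 0.924, limma). With an interval from 0.246-fold to 2.15-fold these 9 arrays could not show a moderate difference in either direction, and the value was 0.0065 when ad libitum dog 7 was left out. Its within-group SD of 1.19 was larger than that of 98.6% of tested probe sets, whether compared with all of them or with those of a mean within 0.5 log2 units. Both further tested probe sets of SLC2A3 followed the same dogs, with r = 0.978 (exact permutation p = 1.1e-05; rho = 0.967) and r = 0.815 (exact permutation p = 0.0056; rho = 0.883) against the representative. Over the 6 such pairs of probe sets of 1 gene, the highest adjusted exact permutation p was 0.0056 for r and 0.0108 for rho, and r was between 0.747 and 0.961 without the 2 dogs farthest from the median.

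The remaining GLUT genes varied little or lay near the filter. SLC2A8 encodes GLUT8, an intracellular transporter, and its representative lay between 5.55 and 5.66 in all 9 dogs. Only 99 of the 18394 tested probe sets had a smaller within-group SD, and a further pair of SLC2A8 probe sets averaged 3.78 and 3.69. The difference of SLC2A8 was 0.0052 (SE 0.09, adjusted p = 0.995, limma). Whether so narrow a range, with a control SD of 0.0099 (n = 4), is transcript signal or background was not tested. Its small difference therefore does not show a steady transcript level. SLC2A12 encodes GLUT12, a transporter described in insulin-sensitive tissues. Its highest probe set read 3.68, 3.91, 3.91, 4.30 and 4.07 in the ad libitum dogs and 3.74, 4.37, 3.91 and 3.90 in the control dogs, above log2 4 on 3 of 9 arrays. At such levels GCRMA values are near background, so no difference is reported for SLC2A12.

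**Figure D2:**
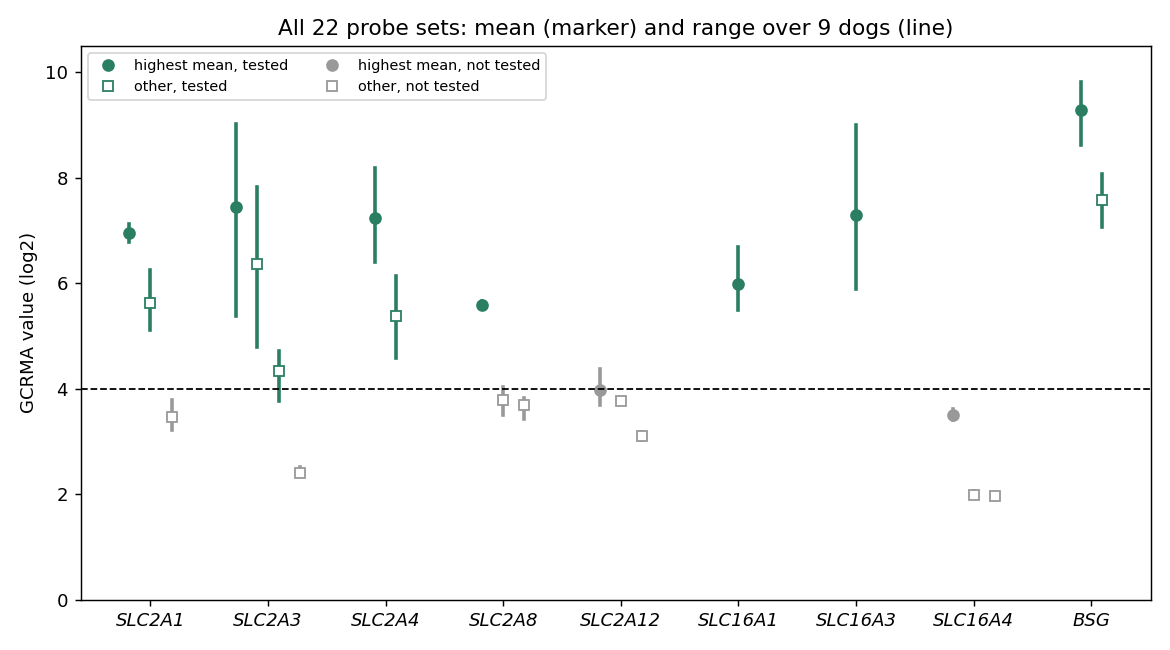
All 22 probe sets of the 9 genes: the marker is the mean GCRMA value on the log2 scale and the line the range over 9 dogs, with filled circles for representatives, open squares for other probe sets, green for tested and grey for untested. All probe sets of SLC2A12 and SLC16A4 have means below the dashed line at log2 4, and SLC2A8 has a single tested probe set with almost no range.

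Of the lactate carriers, SLC16A3, the gene of MCT4, varied most. Ad libitum dogs 2, 5, 6, 7 and 8 had log2 values of 7.35, 7.44, 6.71, 9.01 and 5.90, and control dogs 1, 3, 4 and 9 had 7.98, 7.13, 6.74 and 7.32. Dogs 7 and 8, both fed ad libitum, were the highest and the lowest of the 9, and the controls lay between. The means were 7.28 ± 1.15 (SD, n = 5) and 7.29 ± 0.52 (SD, n = 4), and the difference was -0.0099 (SE 0.55, adjusted p = 0.999, limma). That interval ran from 0.423-fold to 2.33-fold. Leaving out ad libitum dog 7 gave -0.44 and leaving out ad libitum dog 8 gave 0.34. Its within-group SD of 0.93 exceeded that of 96.8% of tested probe sets, and no further probe set of the gene was available to compare it with.

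SLC16A1, the gene of MCT1, had log2 values of 5.52, 5.95, 5.49, 6.68 and 5.90 in the ad libitum dogs and of 6.40, 5.95, 5.83 and 6.08 in the control dogs, in the same order of animals. Dog 7 again had the highest value and dog 6 the lowest. The log2 difference was -0.16 (SE 0.25, adjusted p = 0.928, limma), with an interval from 0.611-fold to 1.32-fold. It was -0.35 without ad libitum dog 7, with an unadjusted limma p of 0.0745, the lowest that any of the 7 genes reached under any alternative. SLC16A4, an orphan member of the family also called MCT5, averaged 3.47 ± 0.06 (SD, n = 5) and 3.53 ± 0.07 (SD, n = 4), and its other probe sets lay at or below 2.06 in every dog.

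BSG encodes basigin, the glycoprotein that escorts MCT1 and MCT4 to the membrane. Its log2 values were 9.37, 9.22, 9.42, 9.62 and 8.86 in the ad libitum dogs and 9.63, 9.82, 9.01 and 8.62 in the control dogs. Both extremes came from control dogs, 3 and 9, so that BSG was spread more widely among controls, with an SD of 0.55 against 0.28; whether the spreads differ was not tested. The difference was 0.03 (SE 0.26, adjusted p = 0.990, limma), with an interval from 0.682-fold to 1.53-fold. A second probe set of BSG gave 0.05 (SE 0.23) and correlated with the representative over the dogs at r = 0.964 (exact permutation p = 4.13e-05, n = 9; rho = 0.917).

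**Figure D3:**
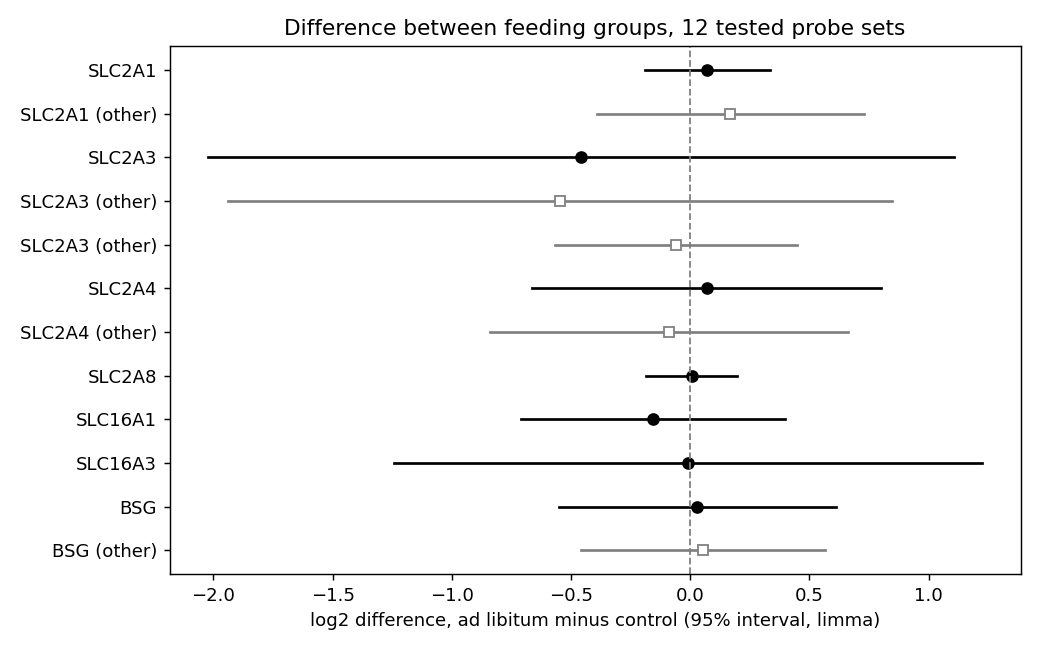
Log2 difference, ad libitum minus control, with its 95% interval from limma for the 12 tested probe sets of the 7 genes, representatives in black and other probe sets in grey. Every interval includes 0, and among the representatives those of SLC2A3 and SLC16A3 are the widest.

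Across dogs, the glucose transporter genes SLC2A3 and SLC2A4 had opposite patterns. The dog with the lowest SLC2A4, dog 6, had the highest SLC2A3, and the dog with the highest SLC2A4, dog 7, had the lowest SLC2A3. Over the 9 dogs r was -0.939 (exact permutation p = 0.000201, adjusted p = 0.00422 over the 21 pairs of tested members) and rho was -0.950 (exact permutation p = 0.000353, adjusted p = 0.00741). After centring each gene on its group means r was -0.948, and without dogs 2 and 7, the farthest from the SLC2A3 median, r was -0.922. With each dog left out in turn r ran from -0.963 to -0.885. The other 5 pairs of tested SLC2A3 and SLC2A4 probe sets had r between -0.919 and -0.652. Of the 7533 other tested genes, only P4HA1, a prolyl hydroxylase of collagen synthesis, had a more negative correlation with SLC2A4 than SLC2A3, at -0.954, and 6 genes, SLC2A3 among them, were below -0.9. From the side of SLC2A3, SLC2A4 was the fifth most negative and 15 genes were below -0.9, led by RAB40C at -0.981. As a description of these 9 arrays, 0.0897% of all pairs of tested genes had an absolute r as large.

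**Figure D4:**
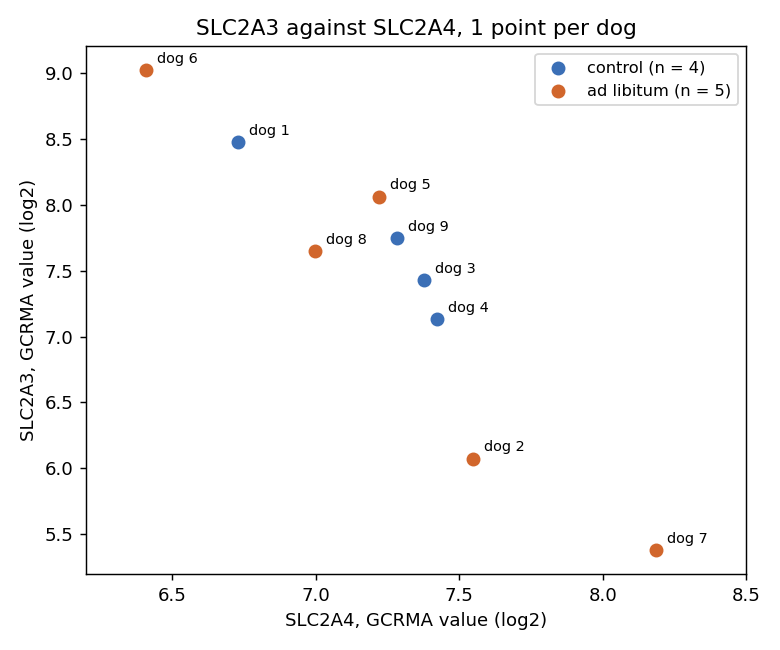
GCRMA values on the log2 scale of SLC2A3 (vertical axis) against SLC2A4 (horizontal axis), 1 point per dog, control dogs in blue and ad libitum dogs in orange. Dogs of both groups lie along 1 falling line, from dog 6 (6.41, 9.02) to dog 7 (8.19, 5.38).

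Cell type markers and RNA quality were set beside this pair, since SLC2A3 is also a gene of blood and nerve cells. In 20 correlations of SLC2A3 and SLC2A4 with the means of 9 marker lists and with the 3' minus 5' value of GAPDH, Pearson's r ran from -0.469 to 0.552, and the lowest adjusted exact permutation p was 0.794 for r and 0.888 for rho. The highest r, 0.552, was that of SLC2A4 with the skeletal muscle list, and it was 0.140 without dogs 6 and 7. With SLC2A3 that list had r = -0.307. Its most widely spread member was MYH1, from 10.6 in dog 8 to 15.4 in dog 7, which is on the fast fibre list too. In ad libitum dogs MYH1 had an SD of 2.24 (n = 5), and the next largest in the skeletal muscle list was 0.23. These 2 values of r therefore do not separate muscle content from the level of MYH1. The macrophage list correlated with SLC2A3 at r = 0.412 (rho = 0.50) and with SLC2A4 at r = -0.404 (rho = -0.50). For the fast fibre list these values were r = -0.128 and 0.390, and for the slow fibre list 0.204 and -0.383. Fibroblast markers had r = 0.404 and -0.469 (rho = 0.50 and -0.50), nerve and Schwann cell markers 0.108 and -0.275, and red blood cell and platelet markers -0.285 and 0.327. Without dogs 2 and 7 the nerve list had r = 0.494 with SLC2A3. Adipocyte markers correlated with SLC2A3 at r = 0.244 with all dogs and at 0.777 without dogs 2 and 7. With SLC2A4 they had r = -0.418, and -0.206 without dogs 6 and 7. Macrophage and fibroblast lists had 0.527 and 0.539 with SLC2A3 without dogs 2 and 7. Against SLC2A4 without dogs 6 and 7 these lists had -0.043 and -0.087, and the slow fibre list had 0.454. In bulk muscle, fewer cells of a type and less RNA per cell cannot be told apart.

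The remaining 20 pairs of members did not pass adjustment by Pearson's r. SLC16A1 and SLC16A3 had r = 0.735 (exact permutation p = 0.0267, adjusted p = 0.280) and rho = 0.711 (exact permutation p = 0.0371, adjusted p = 0.260), and without dogs 6 and 7, the farthest from the SLC16A1 median, r was 0.401. The 4 control dogs had the same order for both genes, with dog 1 highest, then dogs 9, 3 and 4. SLC2A3 had that order in the control dogs too, and SLC2A4 had the reverse, so the order was not particular to this pair. In control dogs SLC2A3 had r = 0.9998 with SLC16A1 and 0.995 with SLC16A3. In ad libitum dogs these values were -0.593 and -0.697. SLC16A1 and SLC16A3 had r = 0.994 in control dogs and 0.711 in ad libitum dogs. BSG correlated with SLC16A1 at r = 0.223 and with SLC16A3 at r = 0.497, with adjusted exact permutation p of 0.778 and 0.541. SLC2A1 and SLC2A8 had rho = 0.850 (exact permutation p = 0.0061, adjusted p = 0.0638) but r = 0.549, over the narrow ranges given above.

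By Pearson's r over the 9 arrays, the genes whose pattern was most like that of SLC2A4 among 7534 tested genes were DDA1 (r = 0.970), MRPL46 (0.956) and TBP (0.933). For SLC16A1 they were TMEM184C (0.929), YAF2 (0.927) and TANK (0.916), and for SLC16A3 they were UQCRC1 (0.943), XPNPEP3 (0.930) and LHB (0.924). For SLC2A3, added after its values were seen, they were MCL1 (0.956), SMARCA1 (0.947) and P4HA1 (0.929). SMARCA1 came next to SLC2A3 among the genes opposite to SLC2A4, at -0.937. With so many genes and 9 arrays such values are descriptions: 12 genes had r over 0.9 with SLC2A4, 4 with SLC16A1, 9 with SLC16A3 and 5 with SLC2A3.

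Of the 45 tested members of 4 lists of other glucose and lactate genes, 0 had an unadjusted limma p under 0.05, where 5.91% of all tested probe sets did. No member of the rest of the GLUT family (6 genes on the array) or of the sodium-glucose cotransporters (5 genes) passed the filter. In the rest of the MCT family with its chaperones, 3 genes were tested, with a median log2 difference of -0.16. They were NPTN, neuroplastin, a chaperone related to basigin, at 0.35 (SE 0.24), SLC16A7, the gene of MCT2, at -0.26 (SE 0.30), and the aromatic amino acid transporter SLC16A10 at -0.16 (SE 0.41). Among the 7 genes of glucose phosphorylation and of lactate and pyruvate handling, 4 were higher and 3 lower, with a median of 0.0034. GPT, alanine aminotransferase, differed by -0.44 (SE 0.32) and LDHD, the D-lactate dehydrogenase, by 0.22 (SE 0.17). HK2, the insulin-sensitive hexokinase that traps glucose in muscle, differed by 0.03 (SE 0.26), and LDHA, the lactate dehydrogenase subunit of glycolytic fibres, by -0.11 (SE 0.22). HK2 and LDHA were picked after their values were seen.

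The vesicle machinery that brings GLUT4 to the surface had 17 tested genes, 12 higher and 5 lower, with a median log2 difference of 0.08. LRP1, a receptor found in GLUT4 vesicles, had an ad libitum mean of 6.60 ± 0.88 (SD, n = 5) and a control mean of 5.75 ± 0.26 (SD, n = 4), differing by 0.85 (SE 0.41, adjusted p = 0.796, limma). STX4, the syntaxin at which GLUT4 vesicles fuse, differed by 0.33 (SE 0.19). TBC1D4, next after STX4 by p in this list, went the other way, at -0.61 (SE 0.35). Of 18 tested regulators of transporter genes or proteins, 5 were higher and 13 lower, with a median of -0.14. TXNIP, which lowers glucose uptake by promoting the internalisation of GLUT1 and GLUT4, had means of 14.35 ± 0.12 (SD, n = 5) and 13.96 ± 0.42 (SD, n = 4) in the same order, differing by 0.40 (SE 0.19, adjusted p = 0.796, limma). Control dog 4 read 13.34 for TXNIP, while control dogs 1, 3 and 9 read 14.24, 14.16 and 14.08. Ad libitum dogs lay between 14.24 and 14.50, so the TXNIP difference depended largely on dog 4. MEF2A, a transcription factor that binds the SLC2A4 promoter, differed by -0.39 (SE 0.20, adjusted p = 0.796, limma).

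The tissue carried its defining markers: 11 skeletal muscle genes averaged 15.1 to 15.6 per dog in ad libitum and 15.4 to 15.6 in control muscle. Markers of some other cell types had larger median differences than the transporters, a contrast that was not tested. The per-dog mean of 10 fibroblast genes ran from 7.96 to 11.5 in ad libitum and from 7.83 to 9.09 in control dogs, that of 8 macrophage genes from 5.00 to 8.01 and from 4.90 to 5.66, and that of 12 adipocyte genes from 8.64 to 10.4 and from 7.80 to 9.53. Median log2 differences of these lists were 1.20, 1.08 and 0.69, with 10 of 10, 8 of 8 and 10 of 12 members higher (48.4% of all tested probe sets were). At an unadjusted limma p under 0.05 were 4 fibroblast, 3 macrophage and 3 adipocyte genes, all higher (background 5.91% in either direction). On the endothelial list 1 gene was below that p and was lower in ad libitum dogs. Of all these, 0 passed an adjusted p of 0.05. Nerve and Schwann cell markers had a median of 0.70, with 3 of 4 members higher. Fast fibre markers had a median of -0.15, with 10 of 10 lower, and slow fibre markers one of 0.09, with 8 of 8 higher. For endothelial markers it was -0.04, with 5 of 11 higher, and for red blood cell and platelet markers -0.19, with 3 of 3 lower. Their part in the transporter values was not tested beyond the correlations above, which covered SLC2A3 and SLC2A4 only. The other members, among them the widely spread SLC16A3, were set against no marker list. Dog 8, the lowest for SLC16A3, also had the lowest fast fibre mean, 12.99. Dog 7, the highest for SLC16A3, had a fast fibre mean of 14.40, below dogs 5 and 9 at 14.46 and 14.52. The 3' minus 5' value of GAPDH ran from 2.14 to 2.29 in ad libitum and from 1.96 to 2.22 in control dogs.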

How the data were processed

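The authors deposited 1 GCRMA value per probe set and array, taken here as log2 from the range of 0.652 to 16.6; GCRMA is named by the submitters' processing notes, without a version. GCRMA corrects background from probe sequence and quantile-normalizes arrays, so a shift of most transcripts would not show, and low values are uncertain. Depth has no counterpart here: the 9 arrays limit precision, with a median standard error of 0.197.

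Of 43035 probe sets, 111 controls were left out. Names came from the platform annotation of 2016, through probe sets with 1 symbol. The group difference came from limma 3.58.1 (R 4.3.3; lmFit and eBayes, two-sided, without covariates) over all 18394 tested probe sets and adjusted by Benjamini-Hochberg, at a threshold of 0.05. The limma step was tested on simulated data. Correlations over dogs used exact two-sided permutation of all pairings (scipy 1.17.1), adjusted within each family. Levels of different probe sets are not comparable, so genes were not ranked by level.

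Alternatives covered filters, a floor, normalization, variance moderation, array weights, an ordinary linear model, other probe sets, an exact permutation test and leaving out each dog. Named were all members, from each pathway list the genes with p under 0.05 or else the 2 of lowest p, and for SLC2A4, SLC16A1 and SLC16A3 the 3 most alike genes. SLC16A10, the third tested gene of its list, TBC1D4, MYH1, P4HA1 and RAB40C were named after their values were seen. Members and lists were chosen with earlier results of these data known.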

Additional observations from a re-analysis of the deposited data

How the results depend on the processing

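No transporter gene passed an adjusted p of 0.05, or an unadjusted p of 0.05, under any of the alternatives run, and the lowest adjusted p of the 7 tested ones was 0.491 (limma). Over all probe sets, 0 passed an adjusted p of 0.05 (1088 at an unadjusted p under 0.05, limma) and 0 passed 0.10, a threshold added after seeing the data. The floor at log2 4 gave 1, and leaving out a dog gave 0 to 1. The 1088 became 1865 with array weights and ran from 695, without ad libitum dog 5, to 2151, without ad libitum dog 7. Of 145 alternative values of the 7 transporter differences, 21 had the opposite sign, and each of the 7 intervals includes 0. SLC2A4 turned to -0.084 with array weights, -0.010 as the mean of its probe sets and -0.089 with its second probe set, and ran from -0.16 to 0.28 with a dog left out. SLC2A8 turned to -0.037 with array centring, -0.069 as the mean of its probe sets, and -0.11 and -0.099 with the others, and ran from -0.011 to 0.017 with a dog left out. SLC2A1 turned to -0.016 with its untested probe set. BSG turned to -0.012 with array centring and ran from -0.19 to 0.21 with a dog left out, SLC16A3 from -0.44 to 0.34, and SLC2A3 from -0.90 to 0.0065. Exact permutation of the dogs between groups, whose smallest p is 0.00794, gave p from 0.444 to 0.992 for the 7 genes. The correlation of SLC2A3 and SLC2A4, whose alternatives were added after seeing the data, was -0.927 with cyclic loess and -0.927 with array centring. The other pairs of probe sets had -0.919, -0.855, -0.833, -0.758 and -0.652. The last, from the tested SLC2A3 probe set of lowest mean against the representative of SLC2A4, was the one alternative with an exact permutation p above 0.05 (p = 0.0537), and the cause was not tested. No paired analysis was possible because each dog was an independent animal in 1 group and the labels give no pairs of dogs.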

Other observations

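SLC2A9, the urate and hexose transporter GLUT9, was above log2 4 on 3 of 9 arrays and so was not tested. In ad libitum dog 5 it read 6.54, while the other 8 dogs lay between 3.83 and 4.35. Dog 5 also had the highest macrophage marker mean of the 9 dogs, 8.01, and the highest fibroblast marker mean, 11.5. SLC2A9 was picked after its values were seen, and a single dog allows no comparison.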
